A study of Mus musculus with 28 samples.

Results

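The body of Gata6 was read as a contact target of its own promoter. The members are the restriction fragments whose midpoint lies over the annotated span of Gata6 with 5 kb on each side, chromosome 18 from 11047510 to 11090636 (mm10). Across 5 libraries, 152 such fragments had reads, of 3217 fragments with reads within 1 Mb of the viewpoint. The viewpoint, the fragment from which contacts are read, was chromosome 18 from 11053305 to 11053963. It starts 0.795 kb inside the gene and was the fragment with most reads in all 5 libraries. Because reads pile up at the viewpoint, the gene was measured with its surroundings and again without the 10 kb on each side of it. The second measure keeps 26.67 kb of the gene side, from 11063964 to 11090636, and 113 fragments. The gene table used here gives spans and no exons, so fragments are placed by their distance into the gene.

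Contacts were measured by 4C-seq, in which crosslinked chromatin is cut and religated and the partners of 1 fragment are amplified and sequenced. All cells derive from the mouse embryonic stem cell line E14Tg2a. The AntNPC libraries, 4 in number, were from anterior neural progenitor cells at day 5 of differentiation and were labelled with the Gata6 promoter as viewpoint. They were wild type (WT) or carried a knock-in within the Gata6 domain of a part of the Sox1 poised enhancer: its transcription factor binding sites (TFBS), its CpG island (CGI), or both (TFBS+CGI). The fifth was from undifferentiated cells (ESC, day 0) with the CGI knock-in. Its label names the insertion site as viewpoint, but its reads place the viewpoint on the same promoter fragment. Each condition had 1 library, so differences are between libraries and no test between conditions was possible. Contact data carry no expression markers, so the labelled cell types could not be checked.

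GATA6 is a zinc-finger transcription factor best known for specifying primitive endoderm and for its roles in heart, lung and gut development. In neural progenitors and pluripotent cells the gene is normally kept silent, and its promoter lies in a CpG island of the kind bound by Polycomb proteins. Gata6os is a long noncoding RNA gene that starts beside the Gata6 promoter, annotated from 11042037 to 11052567. In 4C data, contact frequency falls steeply with distance along the chromosome, so a gene body beside its own promoter is always among the tallest stretches of the profile.

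The 5 libraries held 1023252 to 7429563 reads, and the viewpoint fragment took 78.1% to 91.0% of them. Reads within 1 Mb outside the 10 kb, called local reads below, numbered 61325 in CGI ESC, 66944 in CGI AntNPC, 110885 in WT, 156009 in TFBS+CGI and 191937 in TFBS. They lay on 856 to 2231 fragments. Intervals given in parentheses are 95% Wilson intervals for shares and exact intervals for log2 ratios. They cover counting error only, since amplified reads without molecular identifiers are not independent molecules.

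With everything included, the Gata6 window held 98.5% of all reads within 1 Mb in WT, 98.0% in TFBS+CGI, 97.0% in CGI AntNPC, 94.1% in CGI ESC and 93.4% in TFBS. These values mostly restate the viewpoint fragment, which was 95.9% to 98.9% of the window's reads. With only that fragment left out, the window held 55.3% of the remaining reads in CGI AntNPC (55.1% to 55.6%), 42.8% in TFBS+CGI (42.6% to 43.0%), 41.6% in WT (41.3% to 41.8%), 39.5% in CGI ESC (39.2% to 39.8%) and 35.7% in TFBS (35.5% to 35.9%). CGI AntNPC stood highest on this measure, 1.55 times the lowest library.

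The reads nearest the promoter leaned toward the gene body. Within 10 kb of the viewpoint, the gene side held 29.3% of reads without the viewpoint fragment in WT, and the Gata6os side 4.67%, a ratio of 6.26. In CGI AntNPC the values were 39.3% and 12.8%, a ratio of 3.07, and in TFBS+CGI 27.9% and 8.46%, a ratio of 3.30. In TFBS they were 22.1% and 7.96%, and in CGI ESC 24.9% and 8.49%, ratios of 2.78 and 2.93. The gene side was thus the higher one in all 5 libraries, and WT had the most one-sided profile. The fragment that borders the viewpoint on the gene side alone held 5.70% in WT, 7.65% in CGI AntNPC, 7.90% in CGI ESC, 11.5% in TFBS and 12.4% in TFBS+CGI. Ligation to such a neighbour cannot be told apart from a cut that was missed. Without both bordering fragments the ratio was 5.76 in WT, 3.48 in CGI ESC, 3.06 in CGI AntNPC, 2.47 in TFBS+CGI and 1.83 in TFBS. The gene side was read on 25 to 29 fragments and the other side on 18 to 22, and the part of this in the ratio was not tested.

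The span of Gata6os lies almost wholly in the 10 kb beside the viewpoint. It held 4.09% of reads without the viewpoint fragment in WT, 4.90% in CGI ESC, 5.91% in TFBS, 6.52% in TFBS+CGI and 10.4% in CGI AntNPC. CGI AntNPC was the highest here as it was for the Gata6 window with its surroundings. The Gata6 window starts at 11047510, inside the Gata6os span, so both measures count some of the same reads.

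Outside the 10 kb, Gata6 held 9.78% to 13.55% of local reads. The share was 13.55% in WT (13.35% to 13.75%), on 15025 reads and 72 fragments. It was 13.22% in TFBS+CGI (13.05% to 13.39%), on 20621 reads and 87 fragments. CGI ESC had 11.47% (11.22% to 11.72%), on 7034 reads and 90 fragments. TFBS had 10.0% (9.87% to 10.14%), on 19195 reads and 106 fragments, and CGI AntNPC 9.78% (9.56% to 10.01%), on 6548 reads and 64 fragments. The order was WT, TFBS+CGI, CGI ESC, TFBS and CGI AntNPC, and the highest was 1.39 times the lowest. The intervals of WT and TFBS+CGI overlapped, as did those of TFBS and CGI AntNPC. CGI AntNPC, highest with the surroundings of the viewpoint, was lowest without them.

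At the edge of the window, the last fragment inside, 36.47 kb from the viewpoint, had 151 reads in CGI AntNPC, 4 in TFBS+CGI and 0 in the other libraries. The first fragment outside, at 36.73 kb, had 266 reads in TFBS+CGI, 160 in CGI ESC, 150 in TFBS, 2 in WT and 1 in CGI AntNPC.

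The gene side was next set against a mirror window at equal distances beyond the Gata6os side of the promoter, from 11016632 to 11043304, which holds 112 fragments with reads in any library against 113 in the gene. In WT the mirror held 10.09% of local reads (9.92% to 10.27%). It held 8.74% in CGI ESC (8.52% to 8.97%), 7.64% in TFBS (7.52% to 7.76%), 7.36% in TFBS+CGI (7.23% to 7.49%) and 6.24% in CGI AntNPC (6.06% to 6.43%). Gata6 was above its mirror in all 5 libraries. The ratio of gene to mirror was 1.797 in TFBS+CGI, 1.57 in CGI AntNPC, 1.34 in WT, and 1.31 in both CGI ESC and TFBS. On the log2 scale these are 0.85 (0.81 to 0.88), 0.65 (0.59 to 0.70), 0.43 (0.39 to 0.46), 0.39 (0.34 to 0.44) and 0.39 (0.36 to 0.42). With 25 kb left out in place of 10, the log2 ratio turned below 0, to -0.93 in TFBS+CGI, -0.31 in CGI ESC and -0.46 in TFBS, and was 0.32 in CGI AntNPC and 0.023 in WT. The window left by that choice includes the stretch past the end of the gene. In the last 5 kb inside the gene, the log2 ratio over the mirror was already below 0 in TFBS+CGI, at -1.145, and in TFBS, at -0.26. It was 0.50 in CGI ESC, 0.98 in CGI AntNPC and 1.06 in WT.

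**Figure D1:**
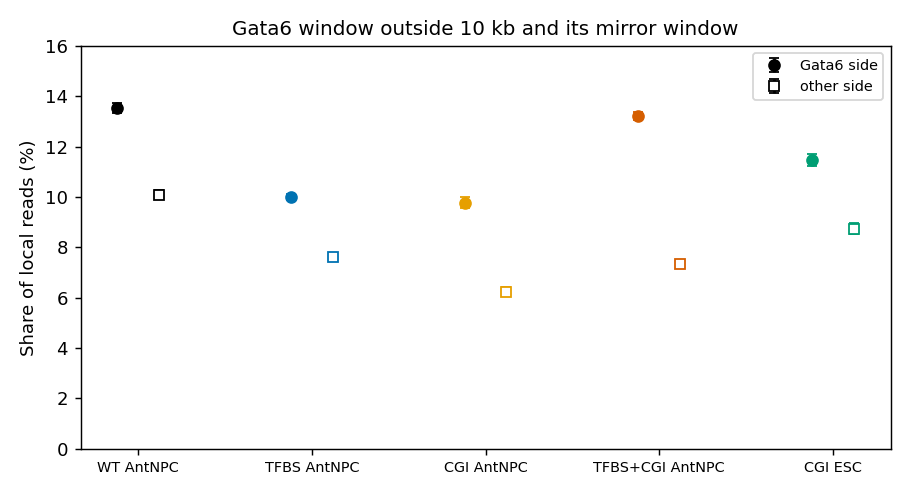
Share of local reads (%) in the Gata6 window outside 10 kb (filled circles) and in the mirror window on the other side of the promoter (open squares), for each of the 5 libraries; bars are 95% Wilson intervals, which cover counting error only. Gata6 lies between 9.78% and 13.55% and above its mirror in every library.

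Sections of the gene, chosen after the values were seen, show where that signal sat. From 10 to 20 kb into the gene side, Gata6 held 8.95% of local reads in TFBS+CGI (8.80% to 9.09%), 6.68% in CGI ESC (6.48% to 6.88%), 5.81% in TFBS (5.71% to 5.92%), 5.37% in CGI AntNPC (5.21% to 5.55%) and 5.17% in WT (5.04% to 5.30%). The mirror held 1.87%, 2.93%, 2.91%, 1.73% and 2.30% in the same order. This stretch was 4.79 times its mirror in TFBS+CGI, 3.11 times in CGI AntNPC, 2.28 times in CGI ESC, 2.25 times in WT and 2.00 times in TFBS. It has 44 fragments with reads in any library against 37 in its mirror. Per such fragment, the log2 ratios over the mirror were 2.01, 1.39, 0.94, 0.92 and 0.75 in the same order. The stretch held 67.7% of the reads of the gene outside the 10 kb in TFBS+CGI, 58.2% in CGI ESC, 58.1% in TFBS, 54.9% in CGI AntNPC and 38.2% in WT. WT was the lowest here by the share of local reads and by the share of gene reads, TFBS was the lowest by the ratio to the mirror, and TFBS+CGI was the highest by each of them.

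From 20 kb to the annotated end of the gene, 31.67 kb from the viewpoint, the summed shares were close to those of the mirror except in WT. They were 3.79% in TFBS against 3.50%, 3.79% in CGI ESC against 3.50%, 3.77% in TFBS+CGI against 3.63%, and 3.71% in CGI AntNPC against 3.36%. WT had 8.10% (7.94% to 8.26%) against 5.61%. The 4 knock-in libraries thus lay between 3.71% and 3.79% here, while WT stood apart. In the step at 20 to 25 kb, WT had 4.17% of local reads against 1.12% to 1.85% in the other libraries. The mirror step at that distance was also highest in WT, at 3.66% against 0.87% to 1.89%. The tallest fragment held 26.0% of the WT step on the gene side, and without it the step was at 3.09%. In the 5 kb before the end, WT had 3.53% on the gene side against 1.695% in the mirror, so most of its difference from the mirror lay there. Relative to the other libraries WT was high in both stretches, with 1.19% to 2.26% in theirs before the end. CGI AntNPC and CGI ESC were also above the mirror before the end, at 2.26% against 1.14% and 1.9% against 1.35%. TFBS and TFBS+CGI were below it there, at 1.22% against 1.46% and 1.19% against 2.64%.

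Signal fell at the annotated end of the gene. In the last 5 kb before the end there were 3918 reads in WT, 2349 in TFBS, 1862 in TFBS+CGI, 1511 in CGI AntNPC and 1165 in CGI ESC. In the first 5 kb past it there were 315, 754, 792, 470 and 612 reads in the same order. The log2 ratio of past over before was -3.64 in WT (-3.81 to -3.47), -1.69 in CGI AntNPC (-1.84 to -1.53), -1.64 in TFBS (-1.76 to -1.52), -1.23 in TFBS+CGI (-1.36 to -1.11) and -0.93 in CGI ESC (-1.07 to -0.79). On the mirror side it was 0.37, 0.015, -0.25, -0.51 and 0.78 in that order. These values rest on few fragments, 12 to 16 with reads before the end and 5 to 12 past it. Without the tallest fragment of each stretch the log2 ratios were -7.41 in WT, on 15 reads past the end, -2.49 in CGI AntNPC, -1.47 in TFBS, -1.66 in TFBS+CGI and -0.89 in CGI ESC. The stretch past the end also holds fewer fragments with reads in any library than its mirror, 15 against 25. Per such fragment, the log2 ratio of that stretch over its mirror was -2.21 in WT, -1.14 in TFBS+CGI, -0.90 in TFBS, -0.48 in CGI ESC and 0.019 in CGI AntNPC.

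**Figure D2:**
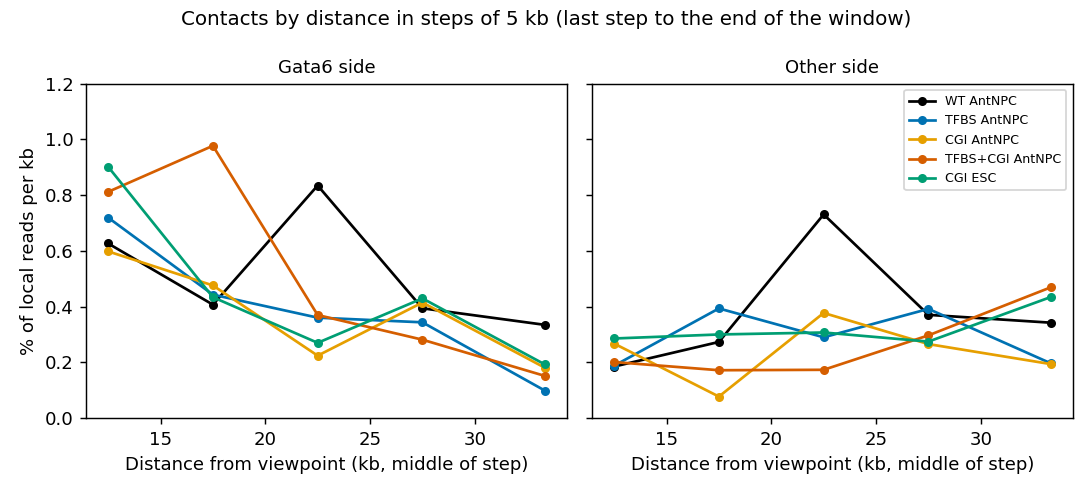
Local reads per kb (%) against distance from the viewpoint (kb) in steps of 5 kb, the last step running to the end of the window, on the Gata6 side and on the other side, 1 line per library. On the Gata6 side the first 2 steps are above those of the other side in every library, the WT library peaks at 20 to 25 kb on both sides, and the last step, which reaches past the gene's end, is below that of the other side in all 5.

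Step by step, the gene side was higher than the other side in 4 of 5 steps in WT and in 3 of 5 in each of the other libraries. At 10 to 15 kb the gene held 3.13% of local reads in WT, 3.60% in TFBS, 2.99% in CGI AntNPC, 4.06% in TFBS+CGI and 4.51% in CGI ESC. The other side held 0.93%, 0.94%, 1.34%, 1.01% and 1.43%. Without the tallest fragment of each step, the gene side at this distance was still at 1.95%, 2.72%, 1.98%, 3.10% and 3.68%, against 0.48%, 0.80%, 0.86%, 0.72% and 1.07%. On the same measure, the WT step at 25 to 30 kb turned lower on the gene side, at 0.74% against 1.03%. The WT step at 15 to 20 kb was nearly even, at 0.847% against 0.844%. Turning higher on the gene side were TFBS+CGI at 25 to 30 kb, at 1.11% against 0.95%, and CGI ESC at 20 to 25 kb, at 1.16% against 1.15%. In the last step, from 30 to 36.67 kb, the gene side was the lower one in all 5, by the narrowest margin in WT, with 2.24% against 2.29%.

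Single fragments were far less alike between libraries than the gene as a whole. Of the 113 gene fragments outside the 10 kb, 42 had reads in all 5 libraries, 28 in 4, 21 in 3, 12 in 2 and 10 in 1. Of the 10 seen in a single library, 7 were in TFBS, with at most 92 reads, and 3 in CGI ESC, with at most 60. Counting fragments with at least 10 reads, 8 were shared by all 5 libraries and 7 reached that level in none. The like counts over the mirror window and all local fragments are not given here, so this sharing is not shown to be particular to the gene. Single libraries had reads on 64 to 106 of the 113 gene fragments and on 46 to 96 of the 112 mirror fragments. The fragments read in all libraries had a median length of 179.5 bp and the other 71 one of 131 bp.

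The 8 shared fragments lay from 11.28 to 28.54 kb into the gene side and held 26.1% of gene reads in WT, 20.5% in TFBS, 9.94% in CGI AntNPC, 33.7% in TFBS+CGI and 20.9% in CGI ESC. The nearest of them, at 11065173 to 11065310, had 1308 reads in WT, 1680 in TFBS, 210 in CGI AntNPC, 865 in TFBS+CGI and 243 in CGI ESC. In percent of local reads that is 1.18%, 0.88%, 0.31%, 0.55% and 0.40%, so this fragment was highest in WT and lowest in CGI AntNPC. It was among the 3 tallest gene fragments of both WT and TFBS. The farthest, at 11082207 to 11082804, had 1362, 231, 114, 468 and 452 reads in the same order. It was the tallest gene fragment of WT, with 1.23% of local reads, and among the 3 tallest of CGI ESC, with 0.74%.

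The fragment at 11073225 to 11073426, 19.36 kb from the viewpoint, was among the 3 tallest in WT, CGI AntNPC and CGI ESC, with 1319, 430 and 357 reads. It had 321 reads in TFBS and only 9 in TFBS+CGI. The tallest gene fragments of TFBS+CGI ran the other way. The fragment at 11071490 to 11071592 had 1965 reads in TFBS+CGI, 716 in WT, 537 in TFBS, 67 in CGI ESC and 16 in CGI AntNPC. The fragment at 11068813 to 11069683 had 1843 in TFBS+CGI, 598 in TFBS, 92 in CGI ESC, 18 in CGI AntNPC and 10 in WT. That at 11068261 to 11068715 had 1491, 415, 337, 9 and 6 reads in the same order. These 3 fragments lie between 14.53 and 17.58 kb from the viewpoint, in the stretch where TFBS+CGI stood highest.

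In CGI AntNPC the tallest gene fragment was at 11064192 to 11064480, 10.37 kb from the viewpoint, with 675 reads or 1.01% of local reads. It had 730 reads in TFBS, 149 in TFBS+CGI, 147 in CGI ESC and 9 in WT. The next in CGI AntNPC, at 11067182 to 11067538, had 460 reads there, 710 in TFBS, 339 in CGI ESC, 233 in TFBS+CGI and 5 in WT. WT was the lowest at both. In TFBS, the others of the 3 tallest were at 11068720 to 11068739, with 796 reads, and at 11071597 to 11071796, with 745. In the other libraries the first had 137 reads in CGI ESC, 0 in CGI AntNPC, 3 in TFBS+CGI and 8 in WT, and the second 491 in TFBS+CGI, 146 in CGI ESC, 9 in WT and 2 in CGI AntNPC. The tallest of CGI ESC was at 11068118 to 11068240, with 508 reads. It had 1360 in TFBS+CGI, 540 in TFBS, 13 in WT and 11 in CGI AntNPC.

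**Figure D3:**
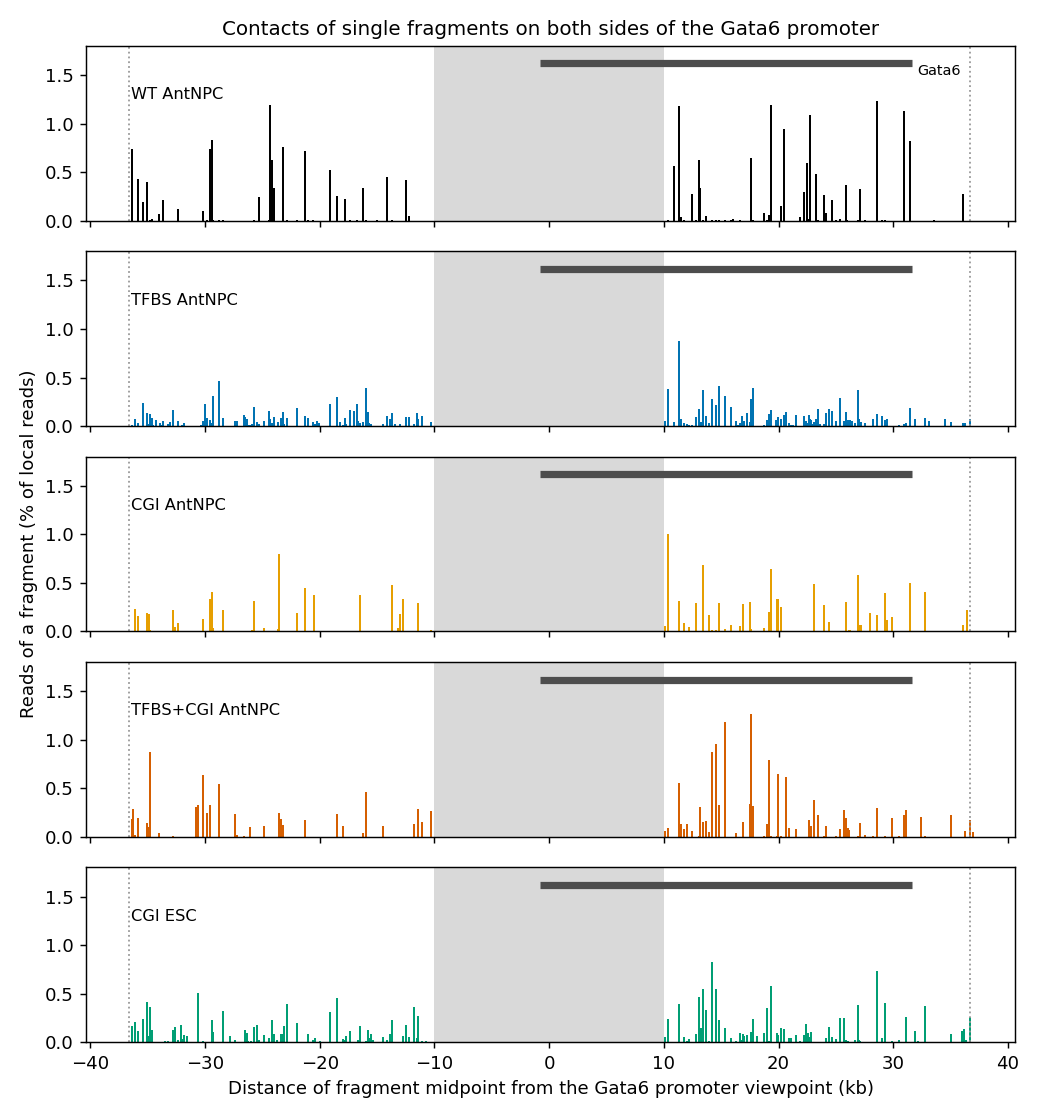
Reads of each fragment as a percentage of local reads against the distance of its midpoint from the viewpoint (kb), 1 panel per library; the grey band is the 10 kb left out on each side, the dark bar the annotated span of Gata6, and dotted lines the ends of the gene window and its mirror. The tallest gene fragments reach 1.23% in WT and 1.26% in TFBS+CGI, at different places.

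The gene signal was concentrated on few fragments, and most in WT when 10 fragments are counted. The 10 tallest fragments held 69.7% of gene reads in WT, 57.4% in TFBS+CGI, 54.95% in CGI AntNPC, 45.9% in CGI ESC and 39.7% in TFBS. The tallest alone held 10.3% in CGI AntNPC, 9.53% in TFBS+CGI, 9.07% in WT, 8.75% in TFBS and 7.22% in CGI ESC. The median gene fragment with reads had 9 reads in WT, 39 in CGI ESC, 40.5 in CGI AntNPC, 82 in TFBS+CGI and 102.5 in TFBS. WT had 6874974 reads in all against 3000576 in TFBS, but 110885 local reads against 191937. The part of depth in this order was not tested.

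**Figure D4:**
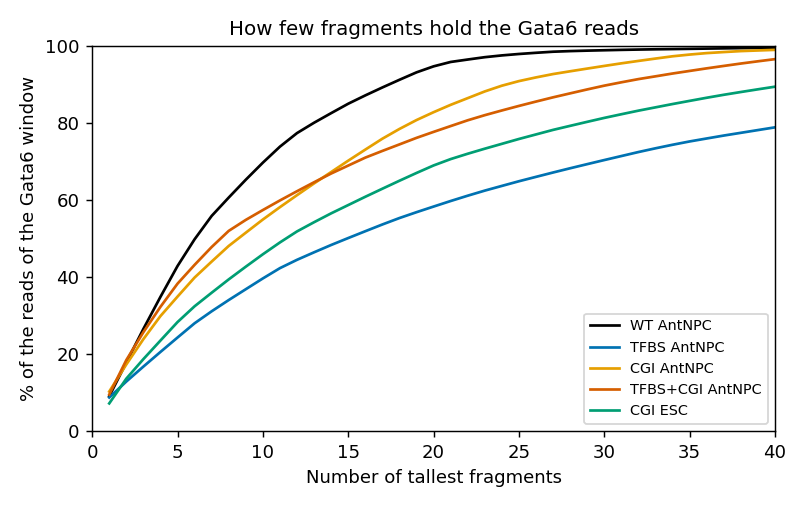
Percentage of the reads of the Gata6 window outside 10 kb held by its tallest fragments, against the number of tallest fragments counted, 1 line per library. At 10 fragments WT is highest, at 69.7%, and TFBS lowest, at 39.7%.

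Many gene fragments had a handful of reads. Those with 1 to 9 reads were 38 of 72 in WT, 35 of 87 in TFBS+CGI, 26 of 90 in CGI ESC, 24 of 64 in CGI AntNPC and 12 of 106 in TFBS. Of the 38 in WT, 27 had at least 100 reads in TFBS, 15 in TFBS+CGI, 12 in CGI ESC and 9 in CGI AntNPC. Of the 24 in CGI AntNPC, 18 had at least 100 in TFBS+CGI, 12 in TFBS, 7 in WT and 7 in CGI ESC. Such counts were common in TFBS and TFBS+CGI, where the median gene fragment with reads had 102.5 and 82 reads. These low counts together were 121 reads in WT, 124 in TFBS+CGI, 99 in CGI ESC, 67 in CGI AntNPC and 47 in TFBS, so they bear on which fragments count as read and hardly on the shares. Whether they are reads carried over between libraries was not tested.

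Over the 113 gene fragments, Spearman's rho between pairs of libraries ran from 0.20, for WT and CGI AntNPC, to 0.49, for TFBS and CGI ESC. With values under 10 reads set to 0, the rho of WT and TFBS went from 0.48 to 0.22 and that of CGI AntNPC and TFBS+CGI from 0.46 to 0.12, while TFBS and CGI ESC had 0.52. The fragments of a pair share their length, sequence and distance from the viewpoint, so these values are descriptions. Of fragments with at least 10 reads, TFBS and CGI ESC shared 59, which is 62.8% of the 94 in TFBS and 92.2% of the 64 in CGI ESC. Over all local fragments that pair shared 448, 26.7% of 1678 and 46.7% of 959, with a rho of -0.091. WT and CGI AntNPC shared 15 gene fragments, which is 44.1% of 34 and 37.5% of 40. Over all local fragments they shared 74, 19.0% of 390 and 15.2% of 487, with a rho of 0.052. The base of these shares differs. At least 10 reads lay on 94 of the 113 gene fragments in TFBS, 64 in CGI ESC, 40 in CGI AntNPC and 34 in WT. Of 3165 local fragments these were 1678, 959, 487 and 390. A larger shared part is thus met in the gene without any special likeness of a pair. Gene fragments lie nearer the viewpoint than most local fragments, and the part of distance in these overlaps was not tested. In the mirror window, at matched distances, rho was 0.28 for TFBS and CGI ESC and 0.15 for WT and CGI AntNPC. Other pairs had a higher rho in the mirror than in the gene. These were WT and TFBS (0.64 against 0.48), CGI AntNPC and TFBS+CGI (0.60 against 0.46), and WT and CGI ESC (0.32 against 0.25). In the remaining pairs rho was lower in the mirror.

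The knock-in libraries were set against WT to ask whether the gene's own contacts differed when a part of the Sox1 enhancer lay in the domain. All 3 ratios share the 1 WT library. As a share of local reads outside the 10 kb, Gata6 was at 0.74 times WT in TFBS, a log2 ratio of -0.44 (-0.47 to -0.41), at 0.72 times in CGI, -0.47 (-0.51 to -0.43), and at 0.98 times in TFBS+CGI, -0.036 (-0.066 to -0.0054). The mirror window was lower than in WT as well. Its log2 ratio was -0.40 (-0.44 to -0.37) in TFBS, an interval that overlaps that of the gene, -0.69 (-0.74 to -0.64) in CGI, further below WT than the gene, and -0.46 (-0.49 to -0.42) in TFBS+CGI. With only the viewpoint fragment left out CGI was above WT, at 0.41 (0.40 to 0.43), TFBS+CGI was at 0.042 (0.028 to 0.056), and TFBS was below, at -0.22 (-0.23 to -0.21). The direction for CGI and TFBS+CGI thus depended on the surroundings of the viewpoint. On the deposited scale, where reads are divided by the library total, all 3 were above WT, TFBS by a log2 ratio of 1.55, CGI by 0.25 and TFBS+CGI by 0.34.

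TFBS+CGI was also set against TFBS, since the study concerns what the CpG island adds to the binding sites. Gata6 was 1.32 times as high in TFBS+CGI, a log2 ratio of 0.40 (0.37 to 0.43), while the mirror window was at -0.054 (-0.090 to -0.019). With 25 kb left out the ratio was 0.049. Over the fragments read in all 5 libraries it was -0.086, and on the deposited scale -1.21. There is no second library of either genotype to set these differences against.

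Fragment by fragment, a change past 2-fold was the rule in the gene and outside it. Counts under 3 reads were set to 3, and fragments needed at least 10 reads summed over both libraries. In TFBS against WT, 90 of 98 gene fragments were past 2-fold, or 91.8%, against 96.6% of all 1871 local fragments tested; 68 were higher and 22 lower, and 79.1% and 17.5% of all local fragments were. In CGI against WT, 54 of 61 gene fragments were past 2-fold, with 95.8% of 813 local fragments, 30 higher (53.6% of all local fragments) and 24 lower (42.2%). In TFBS+CGI against WT these were 63 of 70 with 95.3% of 860, 40 higher (54.4%) and 23 lower (40.9%). In TFBS+CGI against TFBS they were 78 of 97 with 94.9% of 1938, 25 higher (21.4%) and 53 lower (73.5%).

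The median log2 ratio of the gene fragments tested was 3.79 in TFBS over WT, 0.68 in CGI over WT, 2.09 in TFBS+CGI over WT and -1.78 in TFBS+CGI over TFBS. Over all local fragments the medians were 3.32, 2.60, 2.45 and -3.40. In the mirror window they were 3.43, -0.73, -0.77 and -3.64, so the sign differed from the gene in CGI and TFBS+CGI over WT. With at least 50 reads the gene medians were 3.86, 0.080, 3.69 and -1.14. Those over all local fragments were then 4.05, 1.165, 4.40 and -4.20. The median for TFBS over WT was positive although the summed share was lower. TFBS had reads on more fragments, 106 against 72, and WT had more of its reads on few. At least 10 reads lay on 94 gene fragments in TFBS, 34 in WT and 31 in both. Most fragments tested in this pair thus entered through TFBS alone. Its median and its split into higher and lower therefore lean to TFBS by the entry rule.

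The CGI libraries of ESC and AntNPC were compared for the cell state, with the limit that their labels name different viewpoints. Outside the 10 kb Gata6 held 11.47% in ESC and 9.78% in AntNPC, a log2 ratio of 0.23 (0.18 to 0.28). The mirror window moved further, at 0.49 (0.43 to 0.55). With only the viewpoint fragment left out, the gene window held 39.5% in ESC and 55.3% in AntNPC, a log2 ratio of -0.49 (-0.50 to -0.47), so the direction turned with the surroundings of the viewpoint. It turned as well with 5 kb left out, at -0.32. Of 78 gene fragments tested, 62 were past 2-fold, with 93.8% of 1320 local fragments, 43 higher in ESC (63.6%) and 19 lower (30.2%). The median log2 ratio was 2.06 in the gene, 2.84 over all local fragments and 2.63 in the mirror window. With at least 50 reads these were 0.34, 3.66 and 3.53 in that order, so the gene median depended on the minimum. Of the gene fragments with at least 10 reads, 27 were shared, 67.5% of the 40 in AntNPC and 42.2% of the 64 in ESC. Over all local fragments 148 were shared, 30.4% of 487 and 15.4% of 959. The 64 in ESC are out of 113 gene fragments and the 959 out of 3165 local fragments, so the base differs here as well. The rho of this pair was 0.28 over the gene, 0.24 over the mirror window and 0.050 over all local fragments. A WT library of ESC at this viewpoint was not analysed here.

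Gata6 stood first in read density among the 10 protein-coding genes within 1 Mb of the viewpoint, in all 5 libraries. Outside the 10 kb it held 0.51% of local reads per kb in WT, 0.50% in TFBS+CGI, 0.43% in CGI ESC, 0.37% in TFBS and 0.37% in CGI AntNPC. The next gene was Mib1, whose product ubiquitinates Notch ligands, in 4 libraries, and Snrpd1, which encodes a core protein of the splicing machinery, in WT. Gata6 was above the next gene by 15.9 times in WT, 14.1 in TFBS+CGI, 12.4 in CGI AntNPC, 11.4 in CGI ESC and 9.08 in TFBS. The other genes lie from 234.7 to 926.2 kb away, so distance is not matched in this comparison.

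By the likeness of its share across the 5 libraries, each gene centred on its own log2 mean, Mib1 was nearest to Gata6, with a mean absolute difference of 0.24. This measure is also small for genes that vary little, and it does not require a like direction. In WT and TFBS the centred values were opposite, 0.24 and -0.20 for Gata6 and -0.21 and 0.26 for Mib1. In CGI AntNPC they were alike, at -0.23 and -0.22. The sign of Rbbp8 was opposite to that of Gata6 in TFBS, CGI AntNPC and TFBS+CGI, and the same in WT and CGI ESC. Rbbp8, which encodes a DNA end resection factor, followed at 0.38 and Abhd3, which encodes a phospholipase, at 0.39. The farthest was Snrpd1, at 1.19. The share of Gata6 varied by an SD of 0.22 on the log2 scale over the libraries, that of Mib1 by 0.21, and those of the other 8 genes by 0.31 to 1.82. The highest share was 1.39 times the lowest for both Gata6 and Mib1, and 1.61 to 23.1 times for the rest. The value of 23.1, of Snrpd1, rests on 19 reads in CGI AntNPC. Without that library it was 1.87, and the order of the genes by this ratio changed, with Gata6 and Mib1 no longer the lowest pair.

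**Figure D5:**
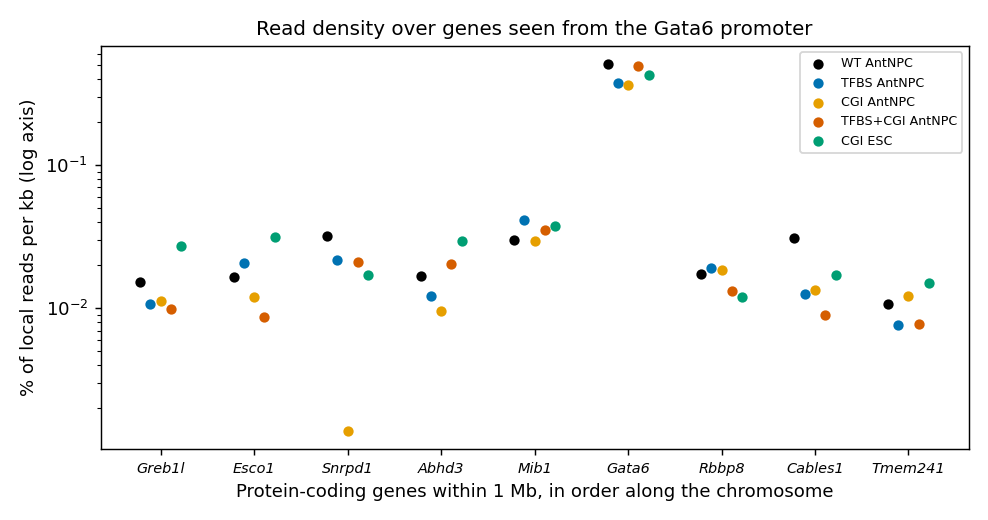
Local reads per kb (%, log axis) over the protein-coding genes named on the axis, within 1 Mb of the Gata6 promoter, in order along the chromosome, 1 point per library. The Gata6 points, at 0.37% to 0.51% per kb, lie above all points of the other genes and close together.

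At the distances of the gene window, from 10 to 36.67 kb on both sides together, the Gata6 promoter libraries held 23.6% of local reads in WT, 20.6% in TFBS+CGI, 20.2% in CGI ESC, 17.6% in TFBS and 16.0% in CGI AntNPC. The wild type libraries of the other viewpoints, all from ESC, held 19.8% at the Gria1 insertion site, 12.7% at the Six2 promoter and 12.65% at the Six3 poised enhancer. The WT value at Gata6 was above all 3, but cell state and viewpoint cannot be told apart in this comparison, and no viewpoint had a second library.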

How the data were processed

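The authors deposited each library as restriction fragments with reads, in RPM (reads scaled to the library total), per the file headers. Mapping used HISAT2 and mm10, per the submitters' processing notes; neither its version nor any filter on reads is stated there. All values were whole multiples of the smallest (100%, tolerance 0.1), so reads were recovered by division. The count test was not run on them, with 1 library per condition. Fragments were placed by midpoint, and gene spans were RefSeq's on GRCm38.p6, the assembly of mm10. The members and the lists were chosen with earlier results of these data known. The rule for names covers Gata6, genes overlapping its window, the 3 genes most alike in share, and the 3 tallest gene fragments of each library. Alternatives covered scale, range, the part left out, the flank, tall and low fragments. The 2-fold count was tested on simulated data with counting error only, which leave out the spread between libraries. Scripts used Python 3.11.15 with pandas 2.3.3, numpy 2.4.6 and scipy 1.17.1. The series lists 28 samples, of which 13 had files and 5 enter the main results. The other 8 with files were used only for the comparison of viewpoints and the lookup of Gata6 reads, and samples without files were not analysed here. The values of 1 gene within 1 Mb are not reported here.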

Additional observations from a re-analysis of the deposited data

How the results depend on the processing

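Values are log2 ratios, and 13 alternatives were run for each comparison of the gene share and 10 for gene over mirror; 3 of them (any overlap, fragments read in all 5 libraries, fragments under 2% of another library set to 0) were chosen after seeing the data. Comparisons are listed in the order TFBS over WT, CGI over WT, TFBS+CGI over WT, TFBS+CGI over TFBS and ESC over AntNPC. On the deposited RPM scale the values were 1.55, 0.25, 0.34, -1.21 and 1.41, and as a share of all reads of the chromosome -0.19, -0.36, 0.27, 0.45 and 0.34. Within 500 kb the first 3 and the last were -0.49, -0.52, -0.12 and 0.32. With 5 kb left out the values were -0.51, -0.020, -0.00086, 0.51 and -0.32. With 25 kb left out they were -0.88, -0.83 (TFBS+CGI over WT), 0.049 and 0.10. With values capped at the 99th percentile they were -0.57, -0.20 (TFBS+CGI over WT), 0.37 and 0.082. With each fragment counted once they were -0.48, 0.18, -0.080 and, for ESC over AntNPC, -0.31. Over fragments read in all 5 libraries they were -0.14, -0.36, -0.23, -0.086 and 0.68, and without the flank CGI over WT was -0.55. For gene over mirror, in the order WT, TFBS, CGI AntNPC, TFBS+CGI and CGI ESC, 5 kb left out gave 0.86, 0.51, 0.79, 1.049 and 0.60, 25 kb gave 0.023, -0.46, 0.32, -0.93 and -0.31, and no flank 0.75, 0.58, 0.84, 1.21 and 0.70. Each fragment counted once gave 0.26, 0.14, 0.48, 0.14 and 0.10, and fragments read in all libraries 0.76, 0.89, 0.91, 1.1 and 1.02. Capping gave 0.39, 0.27, 0.66 and 0.24 in WT, TFBS, TFBS+CGI and CGI ESC, and leaving out the tallest fragment 0.47, 0.35 and 0.88 in WT, TFBS and TFBS+CGI. Gene fragments past 2-fold between ESC and AntNPC were 41 of 57 with a minimum of 50 reads, against 62. The remaining 50 values, 28 of comparisons, 18 of gene over mirror and 4 of counts past 2-fold, stayed within the interval or within 1.5 times. The causes of the shifts were not tested, except that fewer fragments pass a higher minimum. No paired analysis was possible because each condition had 1 library.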

Other observations

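The Gata6 window was also looked up in the 8 libraries of the other viewpoints, on chromosomes 11 and 17. They held 0 to 2 reads there, and these were all on the Gata6 viewpoint fragment: 2 in the Gria1 TFBS library, 1 in Gria1 TFBS+CGI, 1 in the wild type library of the Six3 poised enhancer and 0 in the other 5. Gata6 outside the 10 kb had 0 reads in each of them, among 72642 to 719746 reads off the viewpoint's own chromosome. A count of 0 allows a share of up to 0.00413% of those reads in the shallowest library and 0.000417% in the deepest, for counting error only.

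Farther past the end of the gene, in stretches chosen after the values were seen, WT was the lowest library in the first. From 5 to 10 kb past the annotated end there were 85 reads in WT, 471 in CGI AntNPC, 999 in CGI ESC, 1578 in TFBS and 1760 in TFBS+CGI, or 0.077%, 0.70%, 1.63%, 0.82% and 1.13% of local reads. The mirror held 2.96%, 3.37%, 1.82%, 2.19% and 1.72% at those distances, more than the gene side in every library. From 10 to 15 kb past it, the shares were 0.48% in WT, 0.37% in CGI AntNPC, 1.53% in CGI ESC, 0.87% in TFBS and 0.56% in TFBS+CGI. The mirror was at 0.15%, 0.32%, 0.91%, 0.80% and 0.43%, lower in each by summed reads. The log2 ratio over the mirror was 0.24 in CGI AntNPC, on 3 fragments, with an interval that spans both signs (-0.026 to 0.51). In TFBS it was 0.11 (0.0054 to 0.21).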
